A study of Mus musculus with 6 samples.

Results

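Hemoglobin and erythroid transcripts were followed in splenic follicular helper T (Tfh) cells of control (CTL) and *Prdm1*-CKO mice. The genes were listed by name: the alpha globin genes *Hba-a1* and *Hba-a2*, the beta globin genes *Hbb-bs* and *Hbb-bt*, and the erythroid genes *Alas2*, *Ahsp*, *Klf1* and *Slc4a1*. Of these 8 genes, 7 matched an identifier among the 53379 genes counted in each library, and *Ahsp* was not analysed here. The genes were selected on their counts in *Prdm1*-CKO against CTL mice, so their values are given as a description and without a p value.

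The study asked how Tfh cells differ when dendritic cells (DCs) lack BLIMP-1, the transcription factor encoded by *Prdm1*, and 3 CTL and 3 *Prdm1*-CKO mice each gave 1 RNA-seq library. *Prdm1*-CKO mice carried floxed *Prdm1* alleles and a Cre recombinase driven by the CD11c promoter, which is active mainly in DCs. CTL mice were either floxed without Cre or Cre-positive with wild-type *Prdm1*, and which of these each CTL mouse was is not given in the sources used here. All mice were females of 6 to 8 weeks, immunized with NP-CGG in complete Freund's adjuvant, and the cells were taken on day 7. Live spleen cells positive for TCRβ, CD4, CXCR5 and PD1 were sorted, without a step against FOXP3+ cells, and neither a TER-119 gate nor red cell lysis is described in the sources used here. The deletion is in DCs, so the *Prdm1* level of Tfh cells does not check the labels. It was 27.5 to 30.0 CPM (counts scaled to a common library size) in CTL and 30.2 to 30.9 CPM in *Prdm1*-CKO Tfh.

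Hemoglobin is built from pairs of alpha and beta chains, each holding a heme group, and its genes are among the most strongly transcribed in maturing red cell precursors. *Alas2* encodes the erythroid enzyme that starts heme synthesis, *Klf1* a transcription factor that activates beta globin and other erythroid genes, *Slc4a1* the band 3 anion exchanger of the red cell membrane, and *Ahsp* a chaperone of free alpha globin. Precursors carry transcripts of all of these, and reticulocytes still hold RNA, including globin RNA, after losing their nucleus. The mouse spleen is a site of red cell production and of red cell clearance, and T cells are not known for making hemoglobin.

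Total counts ran from 7147601 to 14177558 in the CTL libraries and from 9753574 to 16973392 in those of *Prdm1*-CKO mice. A count of 3, taken as the floor for a detected transcript, equalled 0.177 to 0.420 CPM of the library totals. CTL replicate 2 stood apart from the other mice, with a mean correlation of 0.875 with them across genes, against 0.923 to 0.944 for each of the other mice. It also had the fewest genes with a count, 16650. Even numbers made up 56.4% to 58.9% of the counts from 1 to 100, and whether the mates of a read pair were counted as 1 fragment is not given in the sources used here. The intervals and floors below take counts as independent and cover counting error only. The sorted cells carried T cell transcripts in all mice, with 7 Tfh markers summing to 2372 to 3152 CPM in CTL and 2256 to 2527 CPM in *Prdm1*-CKO libraries, and *Cd4* itself averaged 905 CPM over the 6 mice.

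The paired 25-base reads limited how far the globin copies could be told apart. In GENCODE M21 transcripts on GRCm38, the 429 coding bases of *Hba-a1* and *Hba-a2* had 1 difference, C381T, and the 444 coding bases of *Hbb-bs* and *Hbb-bt* also had 1, C417T. Positions count from 1 at the first base of the start codon, and the base of the first-named gene comes first. The stretches below hold all bases that a 25-base read over the differing position could cover, so a coding read outside them fits both copies. They are shown because the split of counts between the copies rests on them and on the untranslated ends. The differing base is in capitals.
Hba-a1, coding bases 357 to 405: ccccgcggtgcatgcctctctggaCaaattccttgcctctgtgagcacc
Hba-a2, coding bases 357 to 405: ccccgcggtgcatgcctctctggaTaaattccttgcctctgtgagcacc
Hbb-bs, coding bases 393 to 441: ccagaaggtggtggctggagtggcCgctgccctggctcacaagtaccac
Hbb-bt, coding bases 393 to 441: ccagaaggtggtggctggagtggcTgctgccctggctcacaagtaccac
Over whole transcripts, 179 of 786 windows of 25 bases in *Hba-a1* (22.8%) occurred in no other gene, against 41 of 641 (6.40%) in *Hba-a2*. Once windows also found in the RefSeq promoter window of another gene were left out, 18 (2.29%) remained in *Hba-a1* and 41 (6.40%) in *Hba-a2*. The beta pair had more private sequence, 332 of 741 windows (44.8%) in *Hbb-bs* and 270 of 679 (39.8%) in *Hbb-bt*. The other erythroid genes were mostly private, with 86.4% of windows in *Alas2*, 100% in *Klf1* and 99.9% in *Slc4a1*. Counts of single globin genes are therefore uncertain, while sums over the alpha or the beta pair do not depend on the split between the copies as long as shared reads were kept.

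The globin genes lie in 2 clusters. On GRCm38, *Hba-a1* (ENSMUSG00000069919.7) spans chr11:32283511-32284465 and *Hba-a2* (ENSMUSG00000069917.7) chr11:32296489-32297298, both on the plus strand. *Hbb-bs* (ENSMUSG00000052305.6) spans chr7:103826534-103828096 and *Hbb-bt* (ENSMUSG00000073940.3) chr7:103812524-103813996, both on the minus strand. *Alas2* (ENSMUSG00000025270.13) spans chrX:150547375-150570638 and *Klf1* (ENSMUSG00000054191.8) chr8:84901928-84905291, both on the plus strand. *Slc4a1* (ENSMUSG00000006574.15) spans chr11:102348824-102366203 on the minus strand. The 150 bases before the RefSeq transcript start on GRCm38.p6 are shown for 1 alpha globin gene, 1 beta globin gene and *Alas2*. Whether these sequences bear on the levels in the mice was not tested. GENCODE has transcripts of these genes that start further upstream, inside these windows or before them. Capitals mark the erythroid CACCC box (CACCC), the GATA element (GATAA), the CCAAT box (CCAAT) and the TATA box (TATAA), searched on both strands, so that the reverse complement of a motif is also in capitals.
Hba-a1, chr11:32283522-32283671, plus strand: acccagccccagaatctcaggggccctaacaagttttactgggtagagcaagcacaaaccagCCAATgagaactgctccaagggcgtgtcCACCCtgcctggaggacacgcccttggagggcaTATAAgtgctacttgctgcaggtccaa
Hbb-bs, chr7:103827929-103828078, minus strand: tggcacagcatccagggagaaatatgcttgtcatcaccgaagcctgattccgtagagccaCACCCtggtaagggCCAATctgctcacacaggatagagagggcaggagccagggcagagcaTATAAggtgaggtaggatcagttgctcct
Alas2, chrX:150547267-150547416, plus strand: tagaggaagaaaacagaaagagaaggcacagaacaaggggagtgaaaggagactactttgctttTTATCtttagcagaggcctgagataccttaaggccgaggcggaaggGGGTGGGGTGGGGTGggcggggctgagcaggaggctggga
In the full RefSeq windows, from 250 bases before to 50 after the start, CACCC and GATAA were both present in 6 of the 6 listed genes that had a window, against 12.6% of 32851 mouse promoter windows of this length. CACCC alone was in 57.5% and GATAA alone in 25.4% of all windows. CCAAT was in 5 of the 6 genes (all but *Alas2*) and in 37.4% of windows, and TATAA in 5 of 6 (all but *Klf1*) and in 24.9%. Each globin gene had a TATAA match between -30 and -27 from the start, while those of *Alas2* were at -207 and -208. The GATAA matches of the globin genes, from -209 to -182, lie outside the 150 bases shown. The windows of *Hba-a1* and *Hba-a2* shared an unbroken run of 297 of their 300 bases, so they are not separate observations. A match to these short letters does not show that a factor bound there.

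Globin transcripts were scarce in all libraries and were more abundant in 2 of the 3 *Prdm1*-CKO mice. The 4 globin genes together gave 98, 54 and 92 counts for CTL replicates 1 to 3, against 771, 106 and 490 for *Prdm1*-CKO replicates 1 to 3. Mice are named in this order throughout. They made up between 0.000626% and 0.00454% of a library. Scaled for depth with TMM factors, the summed level was 6.71, 6.40 and 13.6 CPM in CTL and 43.4, 10.8 and 33.6 CPM in *Prdm1*-CKO mice. *Prdm1*-CKO replicates 1 and 3 were the highest, and the groups overlapped because *Prdm1*-CKO replicate 2 lay below CTL replicate 3. *Prdm1*-CKO Tfh averaged 29.3 ± 16.8 CPM and CTL Tfh 8.91 ± 4.08 CPM (SD, n = 3), a ratio of 3.28. The ratio was 2.88 without CTL replicate 2, the library that stood apart. In bulk samples, more globin-bearing cells or free RNA and more RNA in each cell cannot be told apart.

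**Figure D1:**
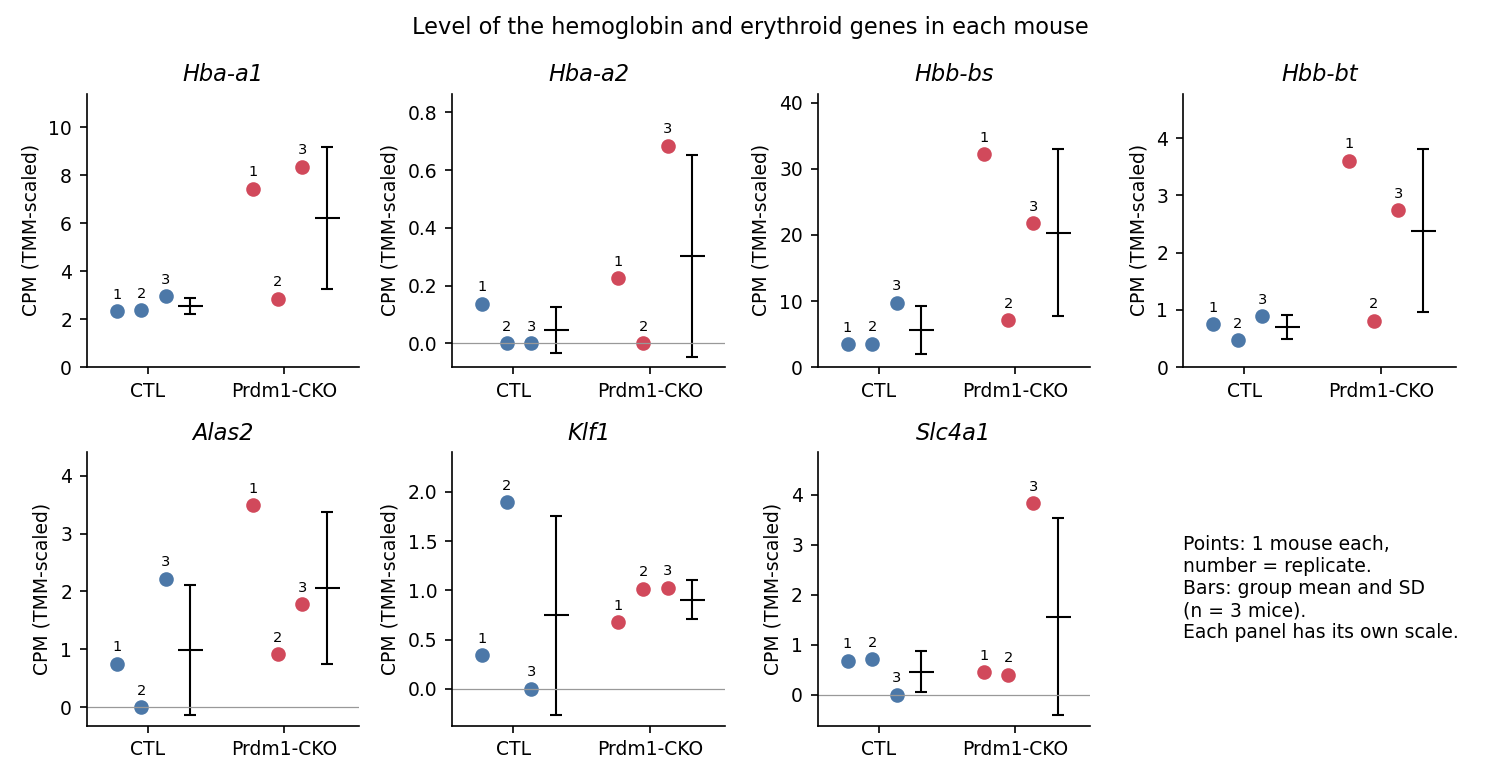
Level of each gene (CPM with TMM factors, y axis, a separate linear scale per panel) in each CTL and *Prdm1*-CKO mouse; points are single mice with their replicate number, bars are the group mean and SD (n = 3 mice). In the 4 globin panels *Prdm1*-CKO replicates 1 and 3 are the highest points, and in all 7 panels the groups overlap.

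*Hbb-bs*, which encodes an adult beta chain, had the most counts of the listed genes. CTL mice gave 51, 30 and 66 counts and *Prdm1*-CKO mice 571, 70 and 318, or 3.49, 3.55 and 9.77 CPM against 32.2, 7.12 and 21.8 CPM. *Prdm1*-CKO replicates 1 and 3 were above all CTL mice, and *Prdm1*-CKO replicate 2 was below CTL replicate 3. The log2 fold change from edgeR was 1.88 (SE 0.63), with 2.54 when CTL replicate 3 was left out and 1.38 when *Prdm1*-CKO replicate 1 was. *Hbb-bt*, the neighbouring adult beta chain gene, had 11, 4 and 6 counts among CTL mice against 64, 8 and 40 among *Prdm1*-CKO mice, or 0.754, 0.474 and 0.888 CPM against 3.61, 0.813 and 2.74 CPM. The order of the mice was nearly that of *Hbb-bs*, with the replicates 1 and 3 of *Prdm1*-CKO on top and a log2 fold change of 1.76 (SE 0.75).

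*Hba-a1*, an adult alpha chain gene, had 34, 20 and 20 counts among CTL mice against 132, 28 and 122 among *Prdm1*-CKO mice. Its levels were 2.33, 2.37 and 2.96 CPM against 7.44, 2.85 and 8.35 CPM, so the CTL mice lay close together and *Prdm1*-CKO replicate 2 lay among them. The log2 fold change was 1.29 (SE 0.54). *Hba-a2*, the near-identical alpha copy, had only 2, 0 and 0 counts among CTL mice against 4, 0 and 10 among *Prdm1*-CKO mice. Only *Prdm1*-CKO replicates 1 and 3 exceeded the floor of 3 counts, and no fold is given for this gene. Given the shared sequence above, these few counts mark reads that could be placed on *Hba-a2* and not its full level.

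*Alas2*, which was read mostly from private sequence, had 11, 0 and 15 counts among CTL mice against 62, 9 and 26 among *Prdm1*-CKO mice. Its levels were 0.754, 0 and 2.22 CPM against 3.49, 0.915 and 1.78 CPM, and CTL replicate 3 was the second highest mouse. The log2 fold change was 1.10 (SE 1.12), no larger than its error, and leaving out CTL replicate 2, CTL replicate 3 or *Prdm1*-CKO replicate 1 gave 0.53, 2.33 or 0.47. *Klf1* had 5, 16 and 0 counts among CTL mice against 12, 10 and 15 among *Prdm1*-CKO mice, or 0.343, 1.90 and 0 CPM against 0.676, 1.02 and 1.03 CPM. The highest and the lowest mouse were both CTL. The log2 fold change of 0.27 (SE 1.11) became -0.10, 2.08 and -0.26 when CTL replicates 1, 2 and 3 were left out in turn, so its direction depended on single CTL mice.

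*Slc4a1* had 10, 6 and 0 counts among CTL mice against 8, 4 and 56 among *Prdm1*-CKO mice. Its levels were 0.685, 0.711 and 0 CPM against 0.451, 0.407 and 3.84 CPM, and *Prdm1*-CKO replicate 3 alone was high. The other *Prdm1*-CKO mice lay below 2 of the 3 CTL mice. *Slc4a1* and *Hba-a2* did not pass the filter on low counts. The fit without that filter gave *Slc4a1* a log2 fold change of 1.70 (SE 1.17).

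Per kilobase of annotated exon, the mean level over the 6 mice was highest for *Hbb-bs* at 16.9 CPM per kilobase, followed by *Hba-a1* at 5.40 and *Hbb-bt* at 2.20 CPM per kilobase. *Alas2* at 0.635, *Klf1* at 0.540, *Hba-a2* at 0.262 and *Slc4a1* at 0.207 CPM per kilobase were all lower. In CTL mice, *Hbb-bs* was 7.30 ± 4.69 and *Hba-a1* 3.14 ± 0.434 CPM per kilobase (SD, n = 3), and CTL values of the pair, 4.55 to 12.7 and 2.87 to 3.64, did not overlap. *Alas2* at 0.412 ± 0.470 and *Klf1* at 0.488 ± 0.660 CPM per kilobase (SD, n = 3) did not differ beyond their spread in CTL mice. These values divide by the full exon length, and the handling of multiply aligned reads is not given. If reads shared between globin copies were dropped, the globin levels are too low, most of all for the alpha copies. The order of the genes and the gap between *Hbb-bs* and *Hba-a1* could then differ. Only 3 of the 7 genes, *Hba-a1*, *Hbb-bs* and *Hbb-bt*, exceeded 3 counts in all mice.

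Across the whole table, 14555 genes passed the filter and the edgeR quasi-likelihood test with Benjamini-Hochberg adjustment called 0 of them (0%) at an adjusted p under 0.05, so it called 0 of the 5 listed genes that were tested. The smallest adjusted p of any gene was 0.996, and an unadjusted p under 0.05 was reached by 135 genes in the higher and 207 in the lower direction. DESeq2 called 7 genes higher and 2 lower, or 0.0346% of the 26030 genes to which it gave an unadjusted p. Its default filter can leave genes with low counts without an adjusted p, so fewer genes may have been open to a call. A log2 fold change of at least 1 was seen for 4 of the 5 tested genes and for 3.3% of all genes tested, and nothing is read from this count because the genes were chosen on the same contrast. None of the 7 genes had groups that did not overlap, which 8.42% of all genes tested had in either direction.

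**Figure D2:**
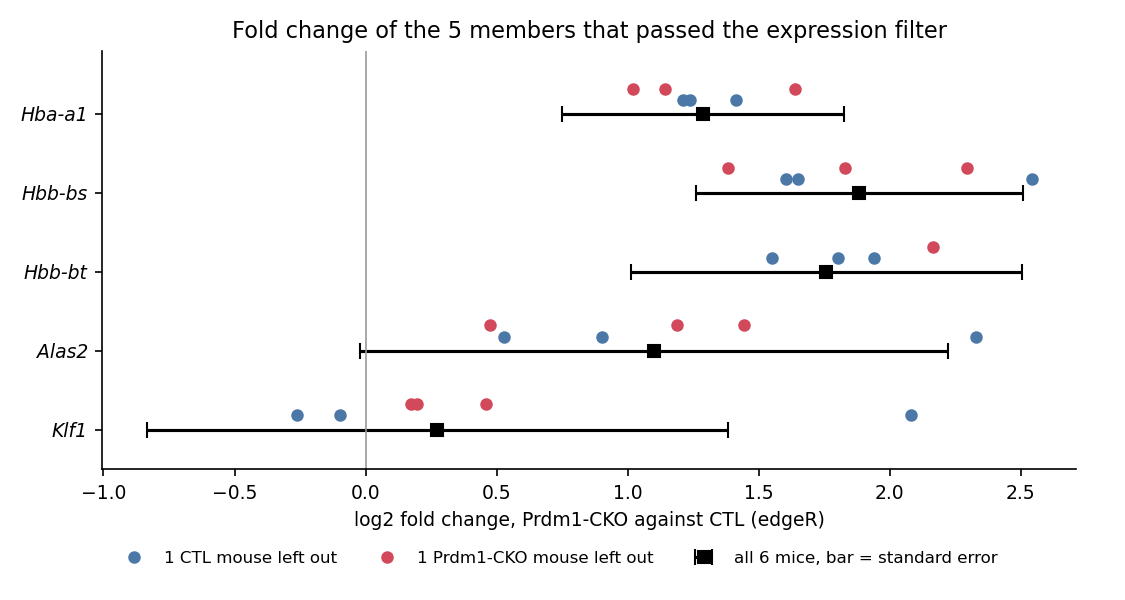
Log2 fold change of *Prdm1*-CKO against CTL from edgeR (x axis) for the 5 listed genes that passed the filter; black squares and bars are the estimate and standard error over all 6 mice, colored points the estimate with 1 mouse left out. The 3 globin estimates stay above 1 in each refit, *Alas2* ranges from 0.47 to 2.33 and *Klf1* from -0.26 to 2.08; *Hbb-bt* failed the filter without *Prdm1*-CKO replicate 1 or 3 and has 4 points.

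The globin genes and the other erythroid genes were then set side by side within each mouse. The 4 globin genes all had *Prdm1*-CKO replicates 1 and 3 as their 2 highest mice, which was so for 0 of the 3 other genes. For *Hba-a2* this rests on 4 and 10 counts, against 2 in CTL replicate 1. The genes were chosen on this contrast and the globin copies share much of their sequence. The 4 are therefore not separate observations, and nothing is read from this tally. The other genes summed to 26, 22 and 15 counts among CTL mice against 82, 23 and 97 among *Prdm1*-CKO mice. Their summed level was 1.78, 2.61 and 2.22 CPM against 4.62, 2.34 and 6.64 CPM. *Prdm1*-CKO replicates 1 and 3 were again the highest, and *Prdm1*-CKO replicate 2 lay below CTL replicate 2. The means were 4.53 ± 2.15 CPM and 2.20 ± 0.413 CPM (SD, n = 3), a ratio of 2.06, which became 2.27 when CTL replicate 2 was left out and 1.58 when *Prdm1*-CKO replicate 3 was.

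The makeup of this sum changed from mouse to mouse. *Alas2* was 42.3%, 0% and 100% of the other erythroid counts in CTL and 75.6%, 39.1% and 26.8% in *Prdm1*-CKO mice. In *Prdm1*-CKO replicate 1 the sum was thus mainly *Alas2* and in *Prdm1*-CKO replicate 3 mainly *Slc4a1*, and in CTL replicate 3 it was *Alas2* alone. Over the 6 mice, the level of *Alas2* followed the globin sum with a Pearson r of 0.847 on the log2(CPM + 1) scale, against 0.372 for *Slc4a1* and -0.09 for *Klf1*. These values describe 6 libraries that share depth and sort and fall into 2 high and 4 low mice for globin.

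**Figure D3:**
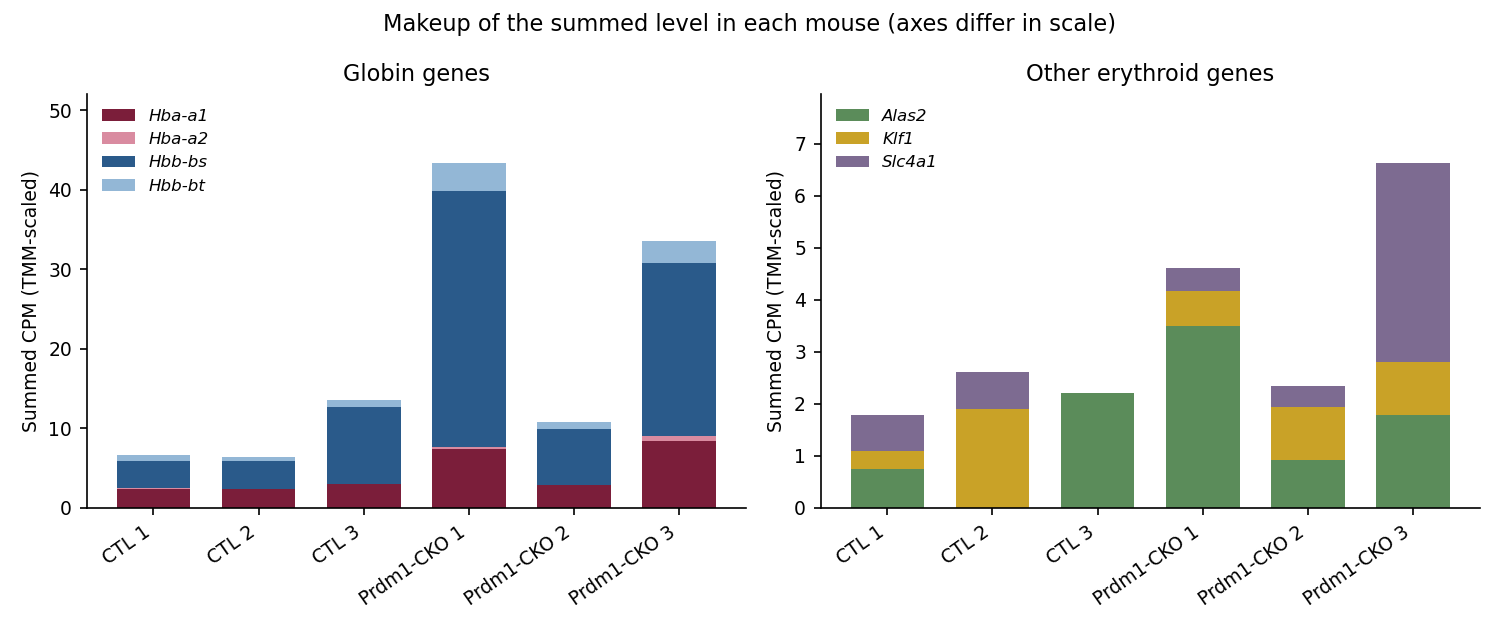
Summed level (CPM with TMM factors, y axis from 0) of the 4 globin genes (left) and of the 3 other erythroid genes (right) in each mouse, with stacked colors for the genes; the panels differ in scale. The left bars are mostly *Hbb-bs* in all mice, while the leading gene of the right bars differs between mice.

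For each count on the other erythroid genes there were 3.77, 2.45 and 6.13 globin counts in CTL and 9.40, 4.61 and 5.05 in *Prdm1*-CKO mice. On the log2 scale the ratio was 1.94 ± 0.66 in CTL and 2.59 ± 0.56 in *Prdm1*-CKO Tfh (SD, n = 3). The groups overlapped, and the difference of 0.65 was close in size to the SD between mice, 0.66 in CTL and 0.56 in *Prdm1*-CKO. An equal change of all erythroid genes and a larger one of globin cannot be told apart with so few counts.

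Within the globin counts, the alpha genes took 36.7% (exact binomial 95% interval 27.2% to 47.1%), 37.0% (24.3% to 51.3%) and 21.7% (13.8% to 31.6%) in CTL replicates 1 to 3. In *Prdm1*-CKO replicates 1 to 3 they took 17.6% (15.0% to 20.5%), 26.4% (18.3% to 35.9%) and 26.9% (23.1% to 31.1%). The group means were 31.8 ± 8.75% and 23.7 ± 5.22% (SD, n = 3), and the groups overlapped. The intervals of *Prdm1*-CKO replicates 1 and 3, the mice with the most globin, did not meet. All 9 alpha globin counts above 0 were even, and if mates were counted separately these intervals are too narrow, so no difference in alpha share between the mice is read from them. *Hbb-bs* was the largest component in all mice, from 52.0% to 71.7% of globin counts in CTL and 64.9% to 74.1% in *Prdm1*-CKO mice. *Hbb-bt* was 17.7%, 11.8% and 8.33% of the beta counts in CTL and 10.1% (7.85% to 12.7%), 10.3% (4.53% to 19.2%) and 11.2% (8.10% to 14.9%) in *Prdm1*-CKO mice, and the groups overlapped.

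**Figure D4:**
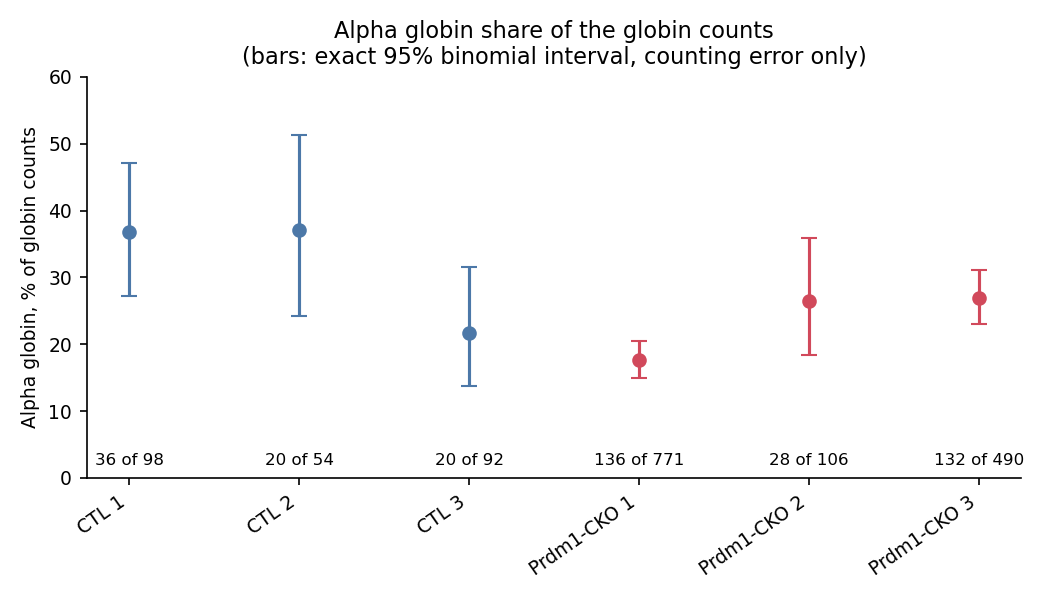
Alpha globin counts as a percent of all globin counts (y axis) in each mouse, with exact 95% binomial intervals that cover counting error only; the numbers at the base give the alpha and the total globin counts. CTL replicates 1 and 2 are the highest at 36.7% and 37.0%, and *Prdm1*-CKO replicate 1 the lowest at 17.6%.

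The rest of the erythroid program was read from 6 further lists with 56 genes in all, of which 33 were tested. None of them was called by edgeR at an adjusted p under 0.05, and an unadjusted p under 0.05 was reached by 1 higher and 2 lower genes. Log2 fold changes were above 0 for 21 and below 0 for 12, with a median of 0.10, beside a median of 0.01 and 7439 above and 7116 below 0 over all genes tested. Groups did not overlap for 4 of the 33, 2 with all *Prdm1*-CKO mice above and 2 with all below, where 4.56% and 3.86% of all genes tested did so. With DESeq2 size factors the number with all below was 1, and with library totals alone the number with all above was 4.

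Of the embryonic and minor globins, *Hba-x*, *Hbq1a*, *Hbb-bh1*, *Hbb-bh2* and *Hbb-y* were listed at 0 in all mice. *Hbq1b* had 2 counts in *Prdm1*-CKO replicate 1 and 0 elsewhere. Beside these 2 counts, all counts on the globin genes examined fell on the adult genes.

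Heme synthesis genes, which most cells use, were tested for 10 of 10, with 5 log2 fold changes above and 5 below 0 and a median of 0.0036. Those with high levels included *Ppox* and *Urod*, which encode late steps of the pathway. *Ppox* averaged 76.2 ± 15.3 CPM in CTL and 86.4 ± 15.1 CPM in *Prdm1*-CKO Tfh (SD, n = 3). *Abcb10*, a mitochondrial transporter of red cell precursors, had 56, 27 and 15 counts among CTL mice against 164, 76 and 76 among *Prdm1*-CKO mice. Its log2 fold change was 1.25 (SE 0.46, edgeR adjusted p = 0.996) and all *Prdm1*-CKO mice were above all CTL mice. *Uros*, which closes the tetrapyrrole ring, had the opposite order, with a log2 fold change of -0.50 (SE 0.21).

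Red cell membrane and skeleton genes were mostly too scarce to test, and of the 4 of 16 that passed the filter 1 was above and 3 were below 0, with a median of -0.44. *Tmod1*, which caps actin filaments of the skeleton, had 34, 71 and 62 counts among CTL mice against 10, 14 and 34 among *Prdm1*-CKO mice. Its log2 fold change was -2.20 (SE 0.74), but CTL replicate 1 and *Prdm1*-CKO replicate 3 had the same count of 34, so the order of these mice rests on the scaling alone. *Epb41* and *Gypc*, which are also made by lymphocytes, had the highest levels of this list at a mean of 84.0 and 63.1 CPM, with log2 fold changes of -0.31 and 0.15.

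Erythroid transcription factors had 4 of 5 tested genes above 0 and a median of 0.10. *Nfe2*, a globin activator also made by platelets and myeloid cells, had 590, 54 and 79 counts among CTL mice against 560, 229 and 391 among *Prdm1*-CKO mice. CTL replicate 1 was the highest mouse and the other CTL mice were the lowest. Genes of the erythropoietin receptor and iron uptake had 4 of 6 above 0 and a median of 0.23. *Tfrc*, the transferrin receptor of dividing cells and red cell precursors, averaged 50.8 ± 19.9 CPM in CTL and 36.3 ± 19.3 CPM in *Prdm1*-CKO Tfh (SD, n = 3).

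Late erythroid enzymes and proteins had 7 of 8 tested genes above 0 and a median of 0.26. *Car1*, a carbonic anhydrase of red cells, had 93, 0 and 24 counts among CTL mice against 197, 89 and 112 among *Prdm1*-CKO mice. All *Prdm1*-CKO levels were above all CTL levels, with a log2 fold change of 1.46 (SE 1.02), and *Prdm1*-CKO replicate 2 was not the lowest of its group as it was for globin. *Prdx2* and *Cat*, antioxidant enzymes abundant in red cells and present in most cells, had the highest levels at a mean of 168 and 148 CPM and log2 fold changes of 0.17 and 0.14.

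**Figure D5:**
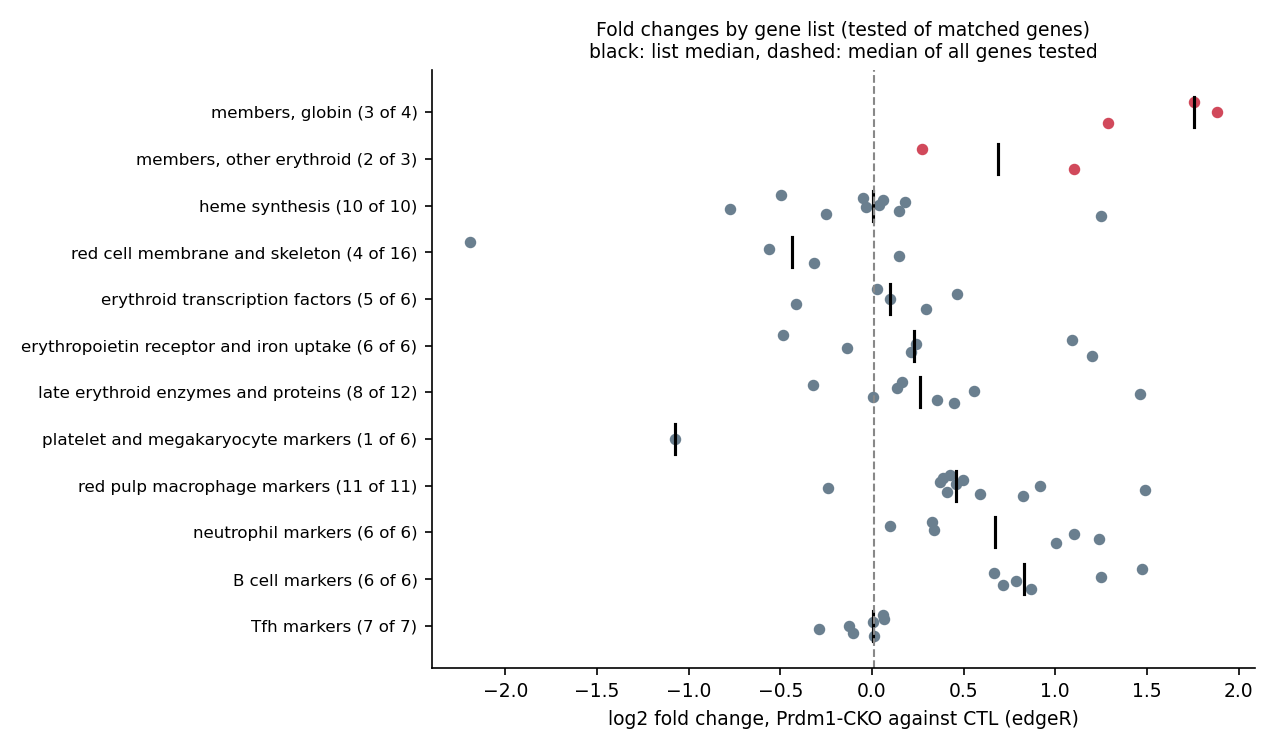
Log2 fold change of *Prdm1*-CKO against CTL from edgeR (x axis) for the tested genes of each list (rows, with the number tested of those matched); red points are the listed globin and erythroid genes, grey points the other lists, black bars the list medians and the dashed line the median of all genes tested. The 3 tested globin genes lie between 1.29 and 1.88, while the 5 other erythroid lists with tested genes have medians from -0.44 to 0.26.

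Transcripts used as markers of other spleen cells were also present, with an order of the mice that differed from list to list. Bulk counts do not show which cells carried them. Markers of red pulp macrophages, the cells that clear red cells, summed to 1592, 518 and 788 CPM in CTL and 1376, 1124 and 1581 CPM in *Prdm1*-CKO mice. CTL replicate 1, highest by a small margin over *Prdm1*-CKO replicate 3, was among the lowest mice for globin. *Csf1r*, at a mean of 606 CPM over the 6 mice, weighed most in this sum. The order of CTL replicate 1 and *Prdm1*-CKO replicate 3 differed between genes, with 688 and 767 counts for *Spic* and 2402 and 1894 for *Slc40a1*. B cell markers summed to 123, 43.2 and 81.8 CPM in CTL and 162, 111 and 156 CPM in *Prdm1*-CKO mice, with *Prdm1*-CKO replicates 1 and 3 the highest, as for globin. Neutrophil markers summed to 53.5, 80.4 and 165 CPM in CTL and 148, 172 and 105 CPM in *Prdm1*-CKO mice, with *Prdm1*-CKO replicate 2 the highest. Log2 fold changes were above 0 for 10 of 11 macrophage, 6 of 6 B cell and 6 of 6 neutrophil markers, with medians of 0.46, 0.83 and 0.67, and edgeR called 0 of them at an adjusted p under 0.05. All *Prdm1*-CKO mice were above all CTL mice for 3 of the 6 B cell markers (*Cd79b*, *Pax5* and *Cr2*) and 2 of the 11 macrophage markers (*C1qc* and *Cd5l*), where 4.56% of all genes tested were. The paper reported *Cd5l* as higher in sorted Tfh cells of *Prdm1*-CKO mice, also by qPCR in other mice. No gene of these 3 lists was at 0 in all mice. Of the 6 platelet and megakaryocyte markers only 1, *Itga2b*, passed the filter. It had 185, 223 and 18 counts among CTL mice against 93, 79 and 97 among *Prdm1*-CKO mice. Its mean was 10.3 CPM and its log2 fold change -1.07 (SE 0.68). The other platelet markers were scarce, with *Pf4* at 6, 0 and 0 counts among CTL mice against 4, 0 and 0 among *Prdm1*-CKO mice. The part of these cells in the globin values was not tested.

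The genes whose level was most like the globin sum over the 6 mice were not erythroid by name. By Pearson r on the log2(CPM + 1) scale, the first 10 of 14550 genes included *Zdhhc3* (0.974), *Ccdc50-ps* (0.971), *Rps6-ps4* (0.963), *Gm7832* (0.960), *Gm17690* (0.957), *Tmem214* (0.954), *Atp5f1* (0.952), *Cyc1* (0.948) and *Med31* (0.947). An r over 0.9 was reached by 46 genes (0.316%), and the median r was 0.0727. *Zdhhc3* ran from 96.3 to 102 CPM in CTL and was 136, 101 and 123 CPM in *Prdm1*-CKO mice, a far smaller range than that of *Hbb-bs*. These correlations describe the same 6 libraries, of which 2 are high for globin.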

How the data were processed

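Tfh RNA of 3 CTL and 3 *Prdm1*-CKO mice was made into Smart-seq2 libraries by the authors, aligned with STAR 2.4.2a to GRCm38.p6 according to the submitters' processing notes, and tallied over genes by featureCounts. Each mouse has 1 deposited table of raw counts. Strand, the handling of multiply aligned reads and the counting of mates are not given in the sources used here. Identifiers were matched to GENCODE M21 without version (53274 of 53379). Titles say knockout and the genotype field knockdown for the group taken here as *Prdm1*-CKO. CPM used TMM factors. Differences were fitted with edgeR 4.0.16 in R 4.3.3 (filterByExpr, quasi-likelihood F test, two-sided, Benjamini-Hochberg adjustment over all genes tested). The steps were first run on simulated counts with 4-fold changes. That run does not show how the fit performs at the low counts of most listed genes. Each p value sets the difference between the groups against the spread between mice.

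The listed genes and the further gene lists were chosen with earlier results of these data known. Named genes are the listed ones, the 3 genes with the highest mean CPM of each further list, any gene called or with groups that did not overlap, the 10 genes most like the globin sum, and *Prdm1*. Alternatives were the DESeq2 1.42.0 Wald test, DESeq2 size factors, library totals, a filter of at least 10 counts in all mice or none, globin genes left out of the library size, counts per kilobase, a replicate block and each mouse left out in turn. Proteins and the flow cytometry, qPCR and ELISA data were not analysed here, and some genes that meet these rules are not reported here.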

Additional observations from a re-analysis of the deposited data

How the results depend on the processing

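The summed globin level, *Hba-a1* and *Hbb-bs* kept a higher mean in *Prdm1*-CKO Tfh under all alternatives run, and *Hbb-bt* did where it passed the filter, which it failed at 10 counts in all mice and without *Prdm1*-CKO replicate 1 or 3. *Hba-a2* was not refitted. With each mouse left out in turn, the log2 ratio of the summed globin level (1.72) ran from 1.32 to 2.16, that of the other erythroid genes (1.04) from 0.66 to 1.35, the alpha share difference (-8.17 percentage points) from -13.2 to -5.16, and the globin to other difference (0.65 on the log2 scale) from 0.33 to 0.99; the highest globin ratio was without CTL replicate 3. Called genes stayed at 0 and 0, and erythroid list genes above 0 numbered 19 to 25. The DESeq2 Wald test called 7 genes higher and 2 lower, and edgeR with no filter called 1 higher, against 0 and 0. Under both, 33 list genes were above 0 instead of 21, because 50 instead of 33 were fitted. *Klf1* (0.27) reversed to -0.10 without CTL replicate 1 and to -0.26 without CTL replicate 3, and was 2.08 without CTL replicate 2. Same-numbered mice correlated at 0.158, 0.0282 and 0.0160 in their deviations from the group means, against -0.131 to 0.0829 for the other pairs. Only the first pair exceeded 0.1, so the numbers were not taken to pair the mice. The scaling settings for genes without overlap were chosen after seeing the data. With the replicate block 0 genes were called, 21 list genes were above 0, and the log2 values were 1.58 for the globin sum, 1.70 for *Alas2* and 0.98 for *Klf1*. Depth limits *Hba-a2*, *Klf1* and *Slc4a1* most, with 16, 58 and 84 counts over the 6 mice.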
